A study of Rattus norvegicus with 12 samples.

Results

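Wt1, Tbx18, Tcf21, Bnc1, Upk3b, Msln, Krt8, Krt18, Krt19 and Aldh1a2 are 10 genes used as markers of the epicardium, the epithelial sheet that covers the heart, and of mesothelium, the wider tissue class to which that sheet belongs. They were taken by gene symbol from the deposited tables, in which each symbol had 1 row among 22850 features, and all 10 were found. Their messenger RNA was followed in cultured rat atrial fibroblasts under 3 treatments, each with 4 libraries, for a total of 12. The cells came from the atria of newborn Sprague-Dawley rats and were separated from cardiomyocytes by their faster adhesion to the dish, without sorting for a surface marker. The AngII group received angiotensin II, a peptide hormone that drives fibroblast activation, at 1 µmol/L for 48 h. The AngII+HNG group was pretreated for 1 h with 10 µmol/L HNG, a synthetic variant of humanin, a small peptide encoded in mitochondrial DNA, and then received the same AngII. The AngII+MOTS-c group was pretreated for 1 h with 5 µmol/L MOTS-c, another such peptide, and then received the same AngII. All groups were kept in 2% serum, all carried AngII, and cells without AngII were not analysed here, so the values describe differences among AngII-treated cultures. The doses of the peptides differed, which bears on any comparison of HNG with MOTS-c.

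The epicardium is a single layer of mesothelial cells held together by cell junctions and a keratin cytoskeleton. During heart development some of its cells lose these contacts, migrate into the muscle and give rise to many of the fibroblasts and mural cells of the heart, a process called epithelial-mesenchymal transition. Transcription factors such as Wt1, Tbx18 and Tcf21 mark the layer and its descendants, and Tcf21 remains a marker of resident fibroblasts, while keratins, uroplakin and mesothelin belong to the covering sheet itself. Retinoic acid made by Aldh1a2 is a classic signal of the layer.

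Total counts ranged from 27960586 to 38322354 per library, so that 3 counts corresponded to 0.0783 to 0.107 CPM, the count of a gene scaled to the library total. The CPM values of genes given here are also adjusted by TMM factors of 0.990 to 1.01. Fibroblast markers were abundant, with Col1a1 at a mean of 4234 FPKM (fragments per kilobase of gene length, scaled to library size) over the 12 libraries and Pdgfra at 32.6 FPKM. Cardiomyocyte markers were also present in every library, among them Nppa at 2446 and Tnnt2 at 748.6 FPKM, so the labelled fibroblast cultures also held cardiomyocyte RNA. Of 7 markers of other epithelia, Krt5 had 0 counts in all 12 libraries, Epcam, Cldn4 and Cldn7 had 0 in at least 1, and Cdh1 had 11 to 33 counts per library. Krt14 was an exception, at a mean of 2.17 FPKM and 85 to 161 counts per library, close to the level of Krt8. In these bulk samples, fewer cells of a type and less RNA per cell cannot be told apart.

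The stretches of 250 bases before the annotated start of 3 of these genes are printed to show the gene whose level differed between treatments, Tcf21, beside Krt8 and Krt18, partner keratins whose genes lie close together on chromosome 7. They are from RefSeq on the rat build GRCr8, 5′ to 3′ on the strand of the gene, at chr1:24520249-24520498 on the plus strand for Tcf21, chr7:135010340-135010589 on the minus strand for Krt8 and chr7:135035918-135036167 on the plus strand for Krt18. Capitals mark a TATA box, read as TATAAA on either strand, in Krt8, and in Krt18 a GC box, GGGCGG, with the GCGGGGGCG of WT1 and EGR factors that overlaps it.
Tcf21: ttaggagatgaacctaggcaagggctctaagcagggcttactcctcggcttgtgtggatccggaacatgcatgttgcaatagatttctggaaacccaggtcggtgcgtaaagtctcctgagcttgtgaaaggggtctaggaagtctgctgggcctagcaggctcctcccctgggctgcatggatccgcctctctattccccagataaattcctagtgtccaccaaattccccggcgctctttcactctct
Krt8: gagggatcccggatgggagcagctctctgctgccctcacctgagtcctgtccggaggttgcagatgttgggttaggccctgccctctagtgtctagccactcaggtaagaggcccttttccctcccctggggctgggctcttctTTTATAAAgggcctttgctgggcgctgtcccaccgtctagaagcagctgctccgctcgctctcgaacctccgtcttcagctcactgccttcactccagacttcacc
Krt18: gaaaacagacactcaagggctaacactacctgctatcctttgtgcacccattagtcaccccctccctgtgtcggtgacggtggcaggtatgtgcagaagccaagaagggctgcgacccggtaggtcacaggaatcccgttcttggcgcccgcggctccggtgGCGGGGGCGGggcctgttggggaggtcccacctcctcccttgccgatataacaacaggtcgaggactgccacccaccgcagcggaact
In a window of 300 bases, which adds the first 50 bases of the transcript, sequences were found for 8 of the 10 genes. The TATA box lay in Krt8 alone of the 8, against 14.2% of 33469 promoters. It began 104 bases before the start on the strand of the gene. An overlapping match on the opposite strand began at 106 bases, and the capitals cover both. The GC box lay in 3 of 8, Bnc1, Krt18 and Aldh1a2, against 33.1%. The longer GCGGGGGCG was found in Krt18 alone, 88 bases before the start, against 2.73% of promoters. The E-box CANNTG, the class of site bound by Tcf21 and its partners, lay in 6 of 8 against 72.1%, and was missing from Tcf21 and Krt18. The Tcf21 window held none of the 9 motifs searched, which says only that these letters are not in it.

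Levels of the 10 genes spanned a wide range on the per-length FPKM scale. Tcf21, a basic helix-loop-helix transcription factor, had the highest level at 111.3 ± 14.7 FPKM (SD over 12 libraries in all 3 treatments), at percentile 97.0 among features with a count. Aldh1a2, which makes retinoic acid from retinaldehyde, followed at 29.1 ± 2.71 FPKM and percentile 86.7. The T-box transcription factor Tbx18 had 8.61 ± 0.479 FPKM and mesothelin, the surface glycoprotein encoded by Msln, had 8.47 ± 0.873 FPKM. Wt1, a zinc finger transcription factor, lay near the middle of all features at 4.13 ± 0.395 FPKM and percentile 50.3. The uroplakin Upk3b had 2.72 ± 0.347 FPKM. The keratins and Bnc1 were lowest, with Krt8 at 2.27 ± 0.383, Krt18 at 0.919 ± 0.202, Krt19 at 0.822 ± 0.203 and the zinc finger factor Bnc1 at 0.613 ± 0.144 FPKM.

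The order of Tcf21, Aldh1a2 and Tbx18 was the same in 12 of 12 libraries, as was that of Msln above Wt1 and of Wt1 above Upk3b. Neighbours that did not separate were Tbx18 and Msln, with Tbx18 higher in 6 of 12 libraries, and Upk3b and Krt8, with Upk3b higher in 10 of 12. Krt18, Krt19 and Bnc1 formed a low end without a fixed order, with Krt18 above Krt19 in 6 of 12 libraries and Krt19 above Bnc1 in 9 of 12. Krt8 and Krt18, which pair in simple epithelia, were not equal in level, and the FPKM ratio of Krt8 to Krt18 lay between 1.85 and 3.25. Krt18 counts of 33 to 60 and Krt19 counts of 28 to 63 per library limited what could be seen of these genes. The annotation names 6 pseudogenes of Krt18 and 1 of Krt8 that are absent from the tables, so reads of near-identical copies could not be assigned and the keratin levels are uncertain.

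**Figure D1:**
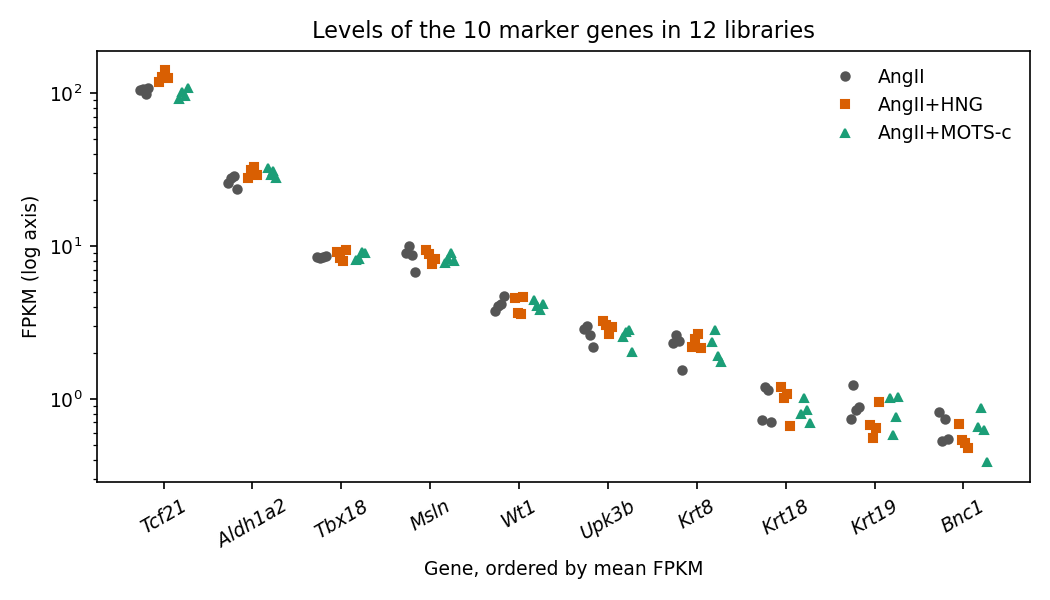
FPKM on a log axis for each of the 10 genes, with 1 point per library and a shape for each treatment. Tcf21 lies between 92.7 and 141.8 FPKM and Bnc1 between 0.384 and 0.866 FPKM, and the AngII+HNG points of Tcf21 lie above all others of that gene.

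The comparison of AngII+HNG with AngII asked whether HNG altered these genes in the presence of AngII. Tcf21 was higher with HNG, and no other member passed the adjusted threshold of 0.05 in edgeR's quasi-likelihood test, which makes 1 of 10, against 5.98% of all 14524 genes tested. By direction, 1 of 10 members was called higher and 0 of 10 lower, against 3.4% and 2.58% of all genes. An unadjusted p below 0.05 was reached by 2 of 10, Tcf21 and Aldh1a2, against 20.3% of all genes. All 10 members passed the filter on low counts. The background count was 869 genes, and was 431, 485 and 512 without AngII replicate 1, 2 or 3. The median log2 fold change of the 10 members was 0.038, beside 0.0043 over all genes tested.

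Tcf21 was at 135.9, 138.5, 128.6 and 140.8 CPM in AngII replicates 1 to 4. In AngII+HNG it was at 152.2, 164.7, 180.7 and 161.8 CPM, and in AngII+MOTS-c at 119.3, 132.3, 124.5 and 140.9 CPM. Every AngII+HNG library was above every library of both other treatments, while AngII and AngII+MOTS-c overlapped. The log2 fold change of AngII+HNG over AngII was 0.28 ± 0.052 (SE, n = 4 per group), which is 1.21-fold, with an adjusted p of 0.00746 in edgeR's quasi-likelihood test. The exact two-sided permutation test on log2 CPM gave p = 0.0286, the smallest that 4 against 4 libraries allow. Among the 10 members Tcf21 alone had groups that did not overlap in this comparison, a state of 13.6% of all genes tested. Under 19 alternative settings its log2 fold change lay between 0.23 and 0.32 and its adjusted p between 5.35e-05 and 0.0359, so the rise with HNG passed the threshold under each of them.

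Markers of other cell types differed between the same groups. Of 8 smooth muscle and pericyte markers 5 fell with HNG, namely Acta2, Tagln, Myh11, Cnn1 and Notch3, with log2 fold changes from -0.41 to -0.29. Their list summed to 4921 to 5186 FPKM in AngII and to 3939 to 4446 in AngII+HNG. That sum rested mostly on Acta2 and Tagln, at means of 2650 and 1782 FPKM over the 12 libraries. Of 7 endothelial markers 3 rose, the receptors Kdr, Tek and Tie1, and the list sum went from 15.6 to 17.7 FPKM in AngII to 20.5 to 22.8 in AngII+HNG. Emcn alone of them had a negative estimate, -0.19 on the log2 scale, at 27 to 51 counts per library, and it did not pass. Of 8 macrophage markers 7 were tested and 3 rose, Cd68, Mrc1 and Ptprc, while Adgre1 was at -0.36 on the log2 scale (unadjusted p = 0.0284, adjusted 0.185 in edgeR), with list sums of 44.2 to 54.2 FPKM in AngII and 54.7 to 75.2 in AngII+HNG and Cd163 at 0 in at least 1 library. Of 8 cardiomyocyte markers 1 rose, Tnni3, and the sums of 3721 to 3964 and 3670 to 4541 FPKM overlapped. Of 10 fibroblast markers 1 rose, Thy1, and the sums of 12032 to 12861 and 11957 to 13539 FPKM overlapped. No marker of other epithelia passed in edgeR (Krt14, Cldn3 and Cdh1 tested), with 0 at an unadjusted p below 0.05. The part of these shifts in the Tcf21 result was not tested. Leaving out 1 library ended the calls of Kdr (AngII replicates 1 and 2, AngII+HNG replicates 2 and 4, adjusted p 0.0565 to 0.0796), Ptprc (AngII replicates 1, 2 and 3, AngII+HNG replicate 4, 0.0681 to 0.0947), Tnni3 (AngII replicates 1, 2 and 3, 0.0519 to 0.0589) and Thy1 (AngII replicates 1, 3 and 4, AngII+HNG replicate 2, 0.0609 to 0.0875), all in edgeR's quasi-likelihood test. Without the libraries numbered 4 of both groups Tie1 (0.0549), Kdr (0.113) and Thy1 (0.0673) no longer passed in edgeR, with replicates 2 and 3 summed Ptprc (0.0593) and Tnni3 (0.0521) did not, and in limma on log2(FPKM + 1) Kdr (0.0511) and Ptprc (0.0518) did not, nor did Kdr with a pseudocount of 0.1 (0.0616).

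Wt1, which is needed for the epicardium to form, was at 12.0, 13.3, 13.1 and 14.4 CPM in AngII. It was at 14.0, 11.5, 11.5 and 14.1 CPM in AngII+HNG and at 13.1, 12.7, 12.6 and 13.3 CPM in AngII+MOTS-c. The 3 groups overlapped, and the log2 fold change with HNG was -0.047 (95% confidence interval -0.25 to 0.15). Tbx18 was even more level, at 41.1 ± 0.676 CPM in AngII, 41.7 ± 3.33 in AngII+HNG and 41.7 ± 2.85 in AngII+MOTS-c (SD, n = 4 each). Its interval with HNG was -0.10 to 0.15 on the log2 scale. Bnc1, the zinc finger factor of keratinocytes and mesothelium, was at 3.29 ± 0.711, 2.72 ± 0.459 and 3.15 ± 0.966 CPM in the same order of groups, and its wide interval with HNG ran from -0.65 to 0.097. The intervals of Wt1 and Tbx18 held log2 differences of at most 0.25 in size, whereas that of Bnc1 held larger falls as well as 0.

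Of the surface proteins of the mesothelial sheet, Upk3b was at 11.0, 11.5, 10.1 and 8.51 CPM in AngII. It was at 12.4, 11.5, 10.1 and 11.2 CPM in AngII+HNG and at 9.79, 10.4, 10.9 and 7.81 CPM in AngII+MOTS-c. The groups overlapped, and the log2 fold change with HNG over AngII was 0.14 ± 0.10 (SE, n = 4 per group) with an adjusted p of 0.486 in edgeR. It was 0.061 without AngII replicate 4. Msln was at 19.1 ± 2.91, 18.6 ± 1.79 and 18.1 ± 1.13 CPM (SD, n = 4 each) in AngII, AngII+HNG and AngII+MOTS-c, with an interval of -0.26 to 0.19 for HNG. Upk3bl1 and Mslnl, genes of similar name that neighbour Upk3b and Msln, have rows of their own in the tables. A locus without a row overlaps Upk3b in the annotation, and another overlaps Krt19, and the use of strand in counting is not given, so reads of these loci cannot be told from those of Upk3b and Krt19. Msln exceeded Upk3b in each library, by an FPKM ratio of 2.77 to 3.94.

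No difference of a simple epithelial keratin, the intermediate filament proteins of such sheets, passed the threshold in any comparison. Krt8 was at 4.07 ± 0.854 CPM in AngII, 4.23 ± 0.503 in AngII+HNG and 3.97 ± 0.791 in AngII+MOTS-c (SD, n = 4 each). Krt18 ranged from 1.04 to 1.71 CPM in AngII, from 0.956 to 1.71 in AngII+HNG and from 1.01 to 1.44 in AngII+MOTS-c, ranges that overlapped throughout. Krt19 was at 1.08, 1.80, 1.25 and 1.31 CPM in AngII and at 0.996, 0.813, 0.937 and 1.38 CPM in AngII+HNG. In AngII+HNG, replicates 1, 2 and 3 lay below all AngII values and replicate 4 within the AngII range, so the groups overlapped. The log2 fold change of Krt19 was -0.39 with a confidence interval of -0.88 to 0.10 and an adjusted p of 0.373 in edgeR, the lowest estimate among the members, at 28 to 63 counts per library. It ranged from -0.57 without AngII+HNG replicate 4 to -0.23 without AngII replicate 2, and was -0.59 without the libraries numbered 4 of both groups and -0.17 in limma on log2(FPKM + 1).

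Aldh1a2 was at 61.5, 66.4, 67.9 and 56.1 CPM in AngII. It was at 65.1, 73.8, 76.6 and 68.1 CPM in AngII+HNG and at 76.3, 68.5, 72.9 and 65.6 CPM in AngII+MOTS-c. In each peptide group 3 of 4 libraries were above the highest AngII library and the remaining one fell within its range. The log2 fold change was 0.17 ± 0.067 (SE, n = 4 per group) with HNG and 0.17 ± 0.061 with MOTS-c. Neither passed, with adjusted p of 0.162 and 0.924 in edgeR's quasi-likelihood test and an exact permutation p of 0.114 in both. The 2 differences share the AngII libraries. Between the peptide groups the log2 difference was 0.0024, with an interval of -0.13 to 0.13.

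**Figure D2:**
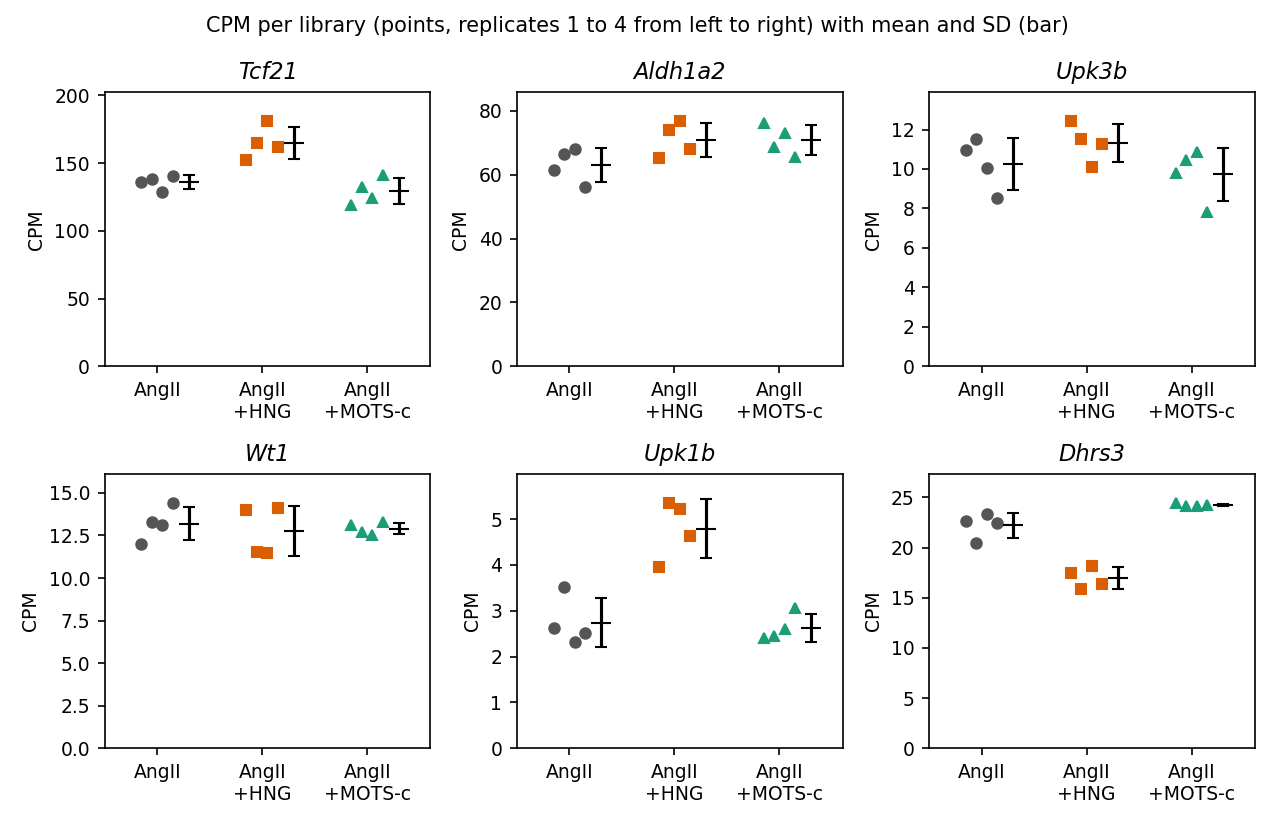
CPM in each library of 4 of the 10 genes and of Upk1b and Dhrs3 from the related lists, on axes that start at 0, with the mean and SD of the 4 libraries of a treatment as a bar. The AngII+HNG points stand apart from both other treatments for Tcf21, at 152.2 to 180.7 CPM, and for Upk1b and Dhrs3, and overlap with them for Aldh1a2, Upk3b and Wt1.

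The comparison of AngII+MOTS-c with AngII asked the same of MOTS-c. No member passed the threshold in edgeR's quasi-likelihood test, 0 of 10, against 0.0069% of all 14488 genes tested, which is 1 gene. At an unadjusted p below 0.05 there was 1 member, Aldh1a2, against 5.05% of all genes, and 0 members passed in DESeq2 and in limma. No member had groups that did not overlap, against 3.44% of all genes. The background count of 1 became 0 without any one AngII library or AngII+MOTS-c replicate 2, 3 or 4, and 3 without AngII+MOTS-c replicate 1. Tcf21 differed by -0.072 on the log2 scale with an interval of -0.17 to 0.030, and by -0.036 without AngII+MOTS-c replicate 1 and -0.12 without AngII+MOTS-c replicate 4. The intervals were within -0.18 and 0.13 for Wt1, Tcf21 and Tbx18, and were widest for Krt19, at -0.63 to 0.37, and Krt18, at -0.64 to 0.32. Of the 10 estimates 2 were positive and 8 negative, with a median of -0.065 beside -0.00076 over all genes tested.

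Set directly against each other, AngII+HNG and AngII+MOTS-c differed in 1 of 10 members, against 4.41% of all 14448 genes tested. The call was higher with HNG, against 2.64% of all genes called higher and 1.77% called lower. Tcf21 was higher with HNG by 0.35 ± 0.061 (log2, SE, n = 4 per group), or 1.27-fold, with an adjusted p of 0.00597 in edgeR's quasi-likelihood test and an exact permutation p of 0.0286. Its groups did not overlap, a state of 12.5% of all genes tested, and its adjusted p stayed between 6.25e-06 and 0.0333 under 19 alternatives. At an unadjusted p below 0.05 Tcf21 was again the only member, 1 of 10 against 19.3% of all genes. Markers of other cell types differed here too, with Acta2, Cnn1 and Notch3 lower (3 of 8 smooth muscle and pericyte markers) and Tek and Tie1 (2 of 7 endothelial), Cd68 and Mrc1 (2 of 8 macrophage), Tnni3 (1 of 8 cardiomyocyte) and Thy1 (1 of 10 fibroblast) higher with HNG. In AngII+MOTS-c these lists summed to 4743 to 5161, 16.1 to 17.6, 46.2 to 53.9, 3365 to 4111 and 12097 to 12873 FPKM in that order. Estimates went the other way for 2 of 8 smooth muscle and pericyte markers (up to 0.14) and 2 of 7 tested macrophage markers (down to -0.26). The same held for 1 of 8 cardiomyocyte markers (-0.16) and 3 of 10 fibroblast markers (down to -0.23), and none was called in that direction. The part of these marker shifts in the Tcf21 difference was not tested, and the call of Mrc1 ended without AngII+MOTS-c replicate 1 or 2 (adjusted p 0.0565 and 0.0732 in edgeR). Without the libraries numbered 4 of both groups Cnn1 (adjusted p 0.0560 in edgeR) and Tek (0.0619) no longer passed, and in limma on the FPKM values with pseudocounts of 1 and 0.1 Acta2 (0.0663 and 0.0637) and Mrc1 (0.0576 and 0.0503) did not. Upk3b came next among the members, with a log2 difference of 0.22 and an interval of -0.015 to 0.45, an adjusted p of 0.292 in edgeR and an exact permutation p of 0.0857. In it 3 of 4 AngII+HNG libraries were above the highest AngII+MOTS-c library, and the difference was 0.13 without AngII+MOTS-c replicate 4. The background count of 637 genes was 416 without AngII+HNG replicate 2 and 324, 322 and 389 without AngII+MOTS-c replicate 1, 2 or 3. Both comparisons that called Tcf21 share the AngII+HNG libraries, and the doses of the 2 peptides were not matched.

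**Figure D3:**
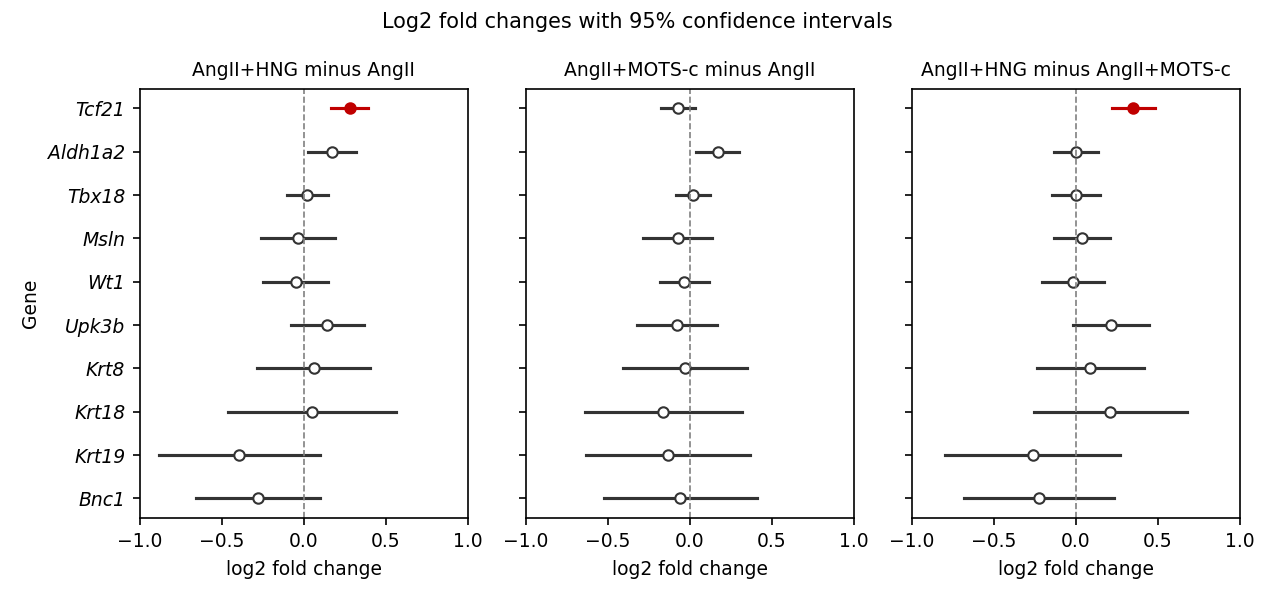
Log2 fold changes of the 10 genes with 95% confidence intervals in the 3 comparisons, ordered by mean FPKM from top to bottom, with filled red points for an adjusted p below 0.05. Tcf21 is filled in both comparisons with AngII+HNG, at 0.28 and 0.35, and the intervals widen toward the low genes at the bottom.

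Summed over the 10 genes the level was 157.3 to 165.9 FPKM in AngII, 177.5 to 201.5 in AngII+HNG and 152.8 to 163.6 in AngII+MOTS-c, a sum of which Tcf21 made up the largest part in every library. In CPM, Wt1 was highest in replicate 4 in all 3 treatments (in FPKM in AngII and AngII+HNG but not in AngII+MOTS-c), and Krt8 and Krt18 were lowest in it in all 3. Of the 10 members, replicate 4 held the highest CPM value of 3 in each treatment, and the lowest value of 5 in AngII, 3 in AngII+HNG and 5 in AngII+MOTS-c. Without the libraries numbered 4, Tcf21 was again the only member to pass in both comparisons with AngII+HNG, and no member passed with MOTS-c.

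To ask whether members varied together apart from treatment, each library was taken as its deviation from its treatment mean in log2 CPM, and 45 pairs were correlated over the 12 libraries. None passed after adjustment, for Pearson's r or Spearman's rho, and 6 had an unadjusted exact permutation p of r below 0.05. Upk3b and Msln, the surface proteins, had r = 0.79 (exact permutation p = 0.00174, adjusted 0.0553) and rho = 0.83 (exact permutation p = 0.00333, adjusted 0.0977), with r = 0.86 without the 2 libraries farthest from the median and 0.97 without the libraries numbered 4. Tbx18 and Krt8 deviated in opposite directions, with r = -0.70 (exact permutation p = 0.00246, adjusted 0.0553) and rho = -0.72 (exact permutation p = 0.00434, adjusted 0.0977), and r was -0.69 and -0.81 under the same omissions. Krt8 and Krt18 had r = 0.63 (exact permutation p = 0.0289, adjusted 0.270) and rho = 0.66 (exact permutation p = 0.0133, adjusted 0.150), with r = 0.48 without the 2 farthest libraries and 0.30 without the libraries numbered 4. The omission of the libraries numbered 4 likewise moved r of Krt8 and Aldh1a2 from 0.67 to 0.22 and r of Wt1 and Krt8 from -0.58 to -0.28, while r of Krt19 and Bnc1 was -0.69 with them and -0.68 without.

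**Figure D4:**
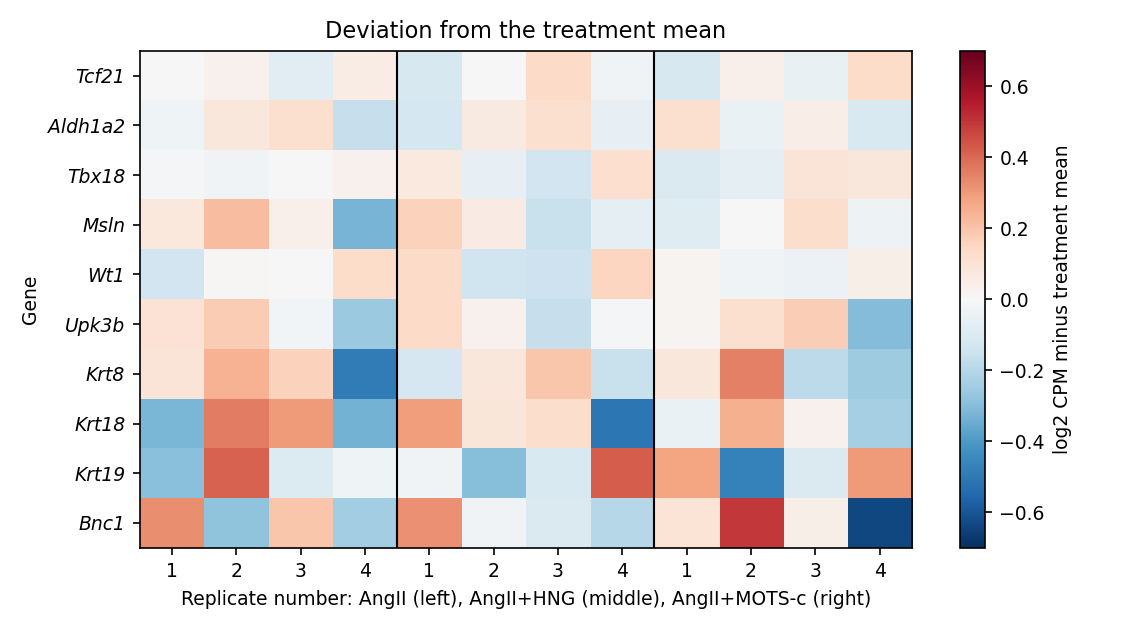
Deviation of log2 CPM from the treatment mean for the 10 genes (rows, ordered by mean FPKM) in the 12 libraries (columns, grouped by treatment), with red above and blue below the mean. The colours deepen toward the low genes, Krt18, Krt19 and Bnc1, and the columns of replicate 4 are blue for Krt8 and Krt18 in all 3 treatments.

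The genes most like each member in these deviations, over 12 libraries and all genes kept, are given as a description. They were Setd1a (r = 0.95) and Akt2 (0.94) for Tcf21, Grid2ip (0.98) and Abt1 (0.95) for Aldh1a2, Foxn2 (0.92) and Atp6v1e1 (0.91) for Tbx18, and Zfp758 (0.92) and Naip6 (0.91) for Wt1. For the surface proteins they were Smad3 (0.95) and Prdx6 (0.92) for Upk3b and B3galt1 (0.93) and Fbxo27 (0.92) for Msln. For the low genes they were Uhrf1 (0.95) and Nsun2 (0.93) for Krt8, Atp5mg (0.93) and Epha2 (0.91) for Krt18, Slc24a5 (0.96) and Zfp28 (0.95) for Krt19, and Rasl11b (0.96) and Cyp1a1 (0.93) for Bnc1. No member was among the most similar genes of another member.

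Beside the members, 22 other epicardial and mesothelial genes were followed, of which 18 passed the filter on low counts, Itln1 had 0 counts in all libraries and Calb2, Krt7 and Dmkn were too low. With HNG against AngII 3 rose and 2 fell. Upk1b, a uroplakin like Upk3b, was at 2.63, 3.51, 2.31 and 2.51 CPM in AngII and at 3.95, 5.35, 5.23 and 4.64 CPM in AngII+HNG, without overlap. Its log2 fold change was 0.81 ± 0.15 (SE, n = 4 per group) with an adjusted p of 0.00776 in edgeR's quasi-likelihood test, beside 0.14 for Upk3b. In limma on log2(FPKM + 1), a scale that understates changes of low genes, it was 0.51. The T-box factor Tbx20 rose by 0.34 ± 0.044 (adjusted p = 0.00102 in edgeR). Nr2f2, a nuclear receptor of atrial identity, fell by 0.40 and the growth factor Tgfb2, a signal for epicardial transition, fell by 0.38 (both adjusted p = 0.00148 in edgeR). The glycoprotein Pdpn rose by 0.18 ± 0.044 (adjusted p = 0.0346 in edgeR), a call that ended on leaving out any one AngII library or AngII+HNG replicate 1 or 2, with adjusted p from 0.0520 to 0.0977. The Pdpn call also ended in edgeR with replicates 2 and 3 summed (0.0564) and without the libraries numbered 4 of both groups (0.0769).

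Against AngII+MOTS-c the same 5 genes passed in the same directions, with Upk1b at a log2 difference of 0.87 ± 0.14 (SE) and an adjusted p of 0.00324 in edgeR, beside 2.40, 2.45, 2.59 and 3.06 CPM in AngII+MOTS-c. In limma on log2(FPKM + 1) the Upk1b difference was 0.54. The calls of Pdpn and Nr2f2 against AngII+MOTS-c ended on leaving out AngII+HNG replicate 2 or AngII+MOTS-c replicate 2, that of Pdpn also on leaving out AngII+MOTS-c replicate 1 or 4 and that of Nr2f2 replicate 3 (adjusted p in edgeR 0.0647 to 0.107 for Pdpn and 0.0546 to 0.0870 for Nr2f2). Both also ended in edgeR with the library-name number as a replicate block (0.0534 for Pdpn and 0.0640 for Nr2f2). Without the libraries numbered 4 of both groups they did too (0.0798 and 0.0668). That of Nr2f2 further ended with replicates 2 and 3 summed (0.0692) and in limma on log2(FPKM + 1) and log2(FPKM + 0.1) (0.0609 and 0.0588). With MOTS-c against AngII none of the 18 passed in edgeR, and 2 had an unadjusted p below 0.05. The median log2 fold change of the list was 0.030 with HNG and -0.042 with MOTS-c.

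Retinoic acid genes act up- and downstream of Aldh1a2. Of 17 listed, 12 were tested, and with HNG 1 rose and 1 fell. Dhrs3, which turns retinaldehyde back into retinol, was at 22.6, 20.4, 23.4 and 22.5 CPM in AngII, at 17.5, 15.8, 18.2 and 16.3 CPM in AngII+HNG and at 24.4, 24.2, 24.1 and 24.3 CPM in AngII+MOTS-c. The AngII+HNG libraries were below all others, and Dhrs3 fell by 0.39 ± 0.066 (log2, SE, n = 4 per group) against AngII and by 0.52 ± 0.061 against AngII+MOTS-c, with adjusted p of 0.00445 and 0.000638 in edgeR's quasi-likelihood test. The receptor Rxra rose by 0.24 ± 0.057 against AngII (adjusted p = 0.0257 in edgeR) and by 0.20 ± 0.047 against AngII+MOTS-c (0.0310). The Rxra call against AngII ended without AngII replicate 1, 2 or 3 or AngII+HNG replicate 2 or 4 (adjusted p 0.0512 to 0.102), and that against AngII+MOTS-c without any one AngII+MOTS-c library or AngII+HNG replicate 2 or 4 (0.0540 to 0.114), each in edgeR. With replicates 2 and 3 summed both calls ended (0.0612 against AngII and 0.0525 against AngII+MOTS-c). The call against AngII+MOTS-c also ended with the library-name number as a replicate block (0.0699) and without the libraries numbered 4 of both groups (0.123). On log2(FPKM + 1) limma gave Rxra 0.12 with an adjusted p of 0.720 against AngII, and 0.33 with 0.280 against AngII+MOTS-c, and the gene length implied by its CPM and FPKM values varied 1.47-fold between libraries. No gene of the list passed with MOTS-c against AngII in edgeR, and 1 had an unadjusted p below 0.05.

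Of 20 other keratins and junction genes, which hold epithelial sheets together, 11 were tested with HNG and 1 fell. It was Pkp2, a desmosome protein shared by cardiomyocytes and epithelia, at -0.24 ± 0.045 (log2, SE, n = 4 per group) and an adjusted p of 0.00834 in edgeR. Krt5 and Esrp1 had 0 counts in all 12 libraries, and Krt80, Krt23, Krt20, Epcam, Cldn4, Cldn7 and Grhl2 had 0 in at least 1. In this list 10 genes were tested with MOTS-c against AngII and 9 between the peptides, and none passed in edgeR, with 0 and 2 at an unadjusted p below 0.05. Of 15 genes of the epicardial transition all were tested and with HNG 1 rose and 1 fell. The receptor Tgfbr2 rose by 0.31 ± 0.053 against AngII (adjusted p = 0.00448 in edgeR) and by 0.33 ± 0.053 against AngII+MOTS-c (0.00376). The repressor Zeb2 fell by 0.19 ± 0.045 against AngII (adjusted p = 0.0247 in edgeR), a call that ended without any one AngII library or AngII+HNG replicate 2 (0.0532 to 0.0697), and it did not pass against AngII+MOTS-c. The Zeb2 call against AngII also ended with replicates 2 and 3 summed (adjusted p 0.0567 in edgeR) and without the libraries numbered 4 of both groups (0.0891). In limma on log2(FPKM + 1) and log2(FPKM + 0.1) its adjusted p was 0.0615 and 0.0608. None of the 15 passed with MOTS-c against AngII in edgeR, with 0 at an unadjusted p below 0.05.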

How the data were processed

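mRNA libraries of the 12 cultures were sequenced as paired-end reads, and the submitters' processing notes name HISAT2, Picard 1.41 and SAMtools 0.1.18. The counting tool, use of strand and genome build are not given in the sources used here. The authors deposited whole-number read counts per gene and matching FPKM values, which scale each count by gene length and library total. The length implied by CPM over FPKM was not constant between libraries for every gene, varying 1.10-fold for Wt1, 1.06-fold for Krt8 and at most 1.02-fold for the other members, so FPKM values served for levels and list sums, and counts for the main tests. Treatments and replicate numbers came from the sample titles, and doses from the study's methods. The methods call the 4 libraries of a group biological replicates, but do not say whether each came from its own cell preparation, and the library names of replicates 2 and 3 share a number in each group, so p-values measure the spread between these libraries, which may in part be technical.

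Counts were fitted in R 4.3.3 with edgeR 4.0.16 (filterByExpr, TMM, glmQLFit and glmQLFTest) on the 8 libraries of each comparison, with Benjamini-Hochberg adjustment over all genes kept, a threshold of 0.05 and no limit on fold change. Log2 CPM used a prior count of 2. Single genes were also tested by exact two-sided permutation of 4 against 4 libraries. Alternatives, with DESeq2 1.42.0 and limma 3.58.1 on log2(FPKM + 1) and log2(FPKM + 0.1) among them, are given at the end. The procedure was also run on counts simulated from its own model with independent libraries, a setting that cannot show its behaviour with technical replicates. The 10 genes, the other lists and the tests were chosen with earlier results of these data known. All members were named. Of other lists, genes past the threshold were named, or else the 3 with the highest FPKM. The result of 1 marker list is not reported here. The alternatives for genes of the other lists, and the omissions in the correlations, were chosen after seeing the data. Promoters were RefSeq sequences of GRCr8, and both strands were searched.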

Additional observations from a re-analysis of the deposited data

How the results depend on the processing

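In total 19 alternatives were run for each comparison. The call of Tcf21 in both comparisons with AngII+HNG, and the absence of calls among the members with MOTS-c against AngII, held under all of them. With the replicate block, by the number in the titles or that in the library names, 2 members passed with HNG against AngII. They were Tcf21, with an adjusted p of 0.00855 by title and 0.00581 by library name, and Aldh1a2, with 0.0397 by title and 0.0329 by library name (edgeR), and the block changed no other call of a member. With replicates 2 and 3, which share a number in the library names, summed to 1 sample per group, Aldh1a2 had an adjusted p of 0.229 in edgeR and Tcf21 one of 0.0206. The numbers were not found to pair the libraries, since the correlations of deviations with the same number were -0.076, -0.031, 0.024 and 0.14 between AngII and AngII+HNG, -0.014, 0.16, 0.085 and 0.21 between the peptides and 0.029, 3.0e-05, 0.069 and 0.12 for MOTS-c, and not every library correlated best with its own number. Replicate 4 did so in all 3 comparisons. The cause of the added call was not tested.

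All genes called with HNG against AngII numbered 577 with replicates 2 and 3 summed and 541 without the libraries numbered 4, and 431 to 932 with 1 library left out. With MOTS-c against AngII they numbered 3 in DESeq2, 2 with the block by title number and 0 with all 12 libraries in one fit, with replicates summed or without the libraries numbered 4, and 0 to 3 with 1 library left out. Between the peptides they numbered 1042 in DESeq2, 975 with all 12 libraries in one fit, 1054 with the block by title number, 377 without the libraries numbered 4, and 322 to 625 with 1 library left out. Fewer libraries enter the fits with summed or omitted replicates. The cause of the shifts was not tested under any of the alternatives.

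Of 570 member values under the alternatives, 518 kept direction and side of the threshold, 2 passed anew and 50 changed sign, none of the last past the threshold. With replicates summed the log2 values that changed sign were 0.014 (Msln, HNG against AngII), 0.0056 (Krt8, MOTS-c against AngII) and, between the peptides, 0.014 (Wt1), 0.033 (Tbx18) and -0.024 (Aldh1a2). Without the libraries numbered 4 they were -0.0070 (Tbx18) and -0.025 (Krt8) with HNG, 0.035 (Bnc1) with MOTS-c and -0.010 (Aldh1a2) between the peptides. With the block by library-name number they were 0.0079 (Bnc1, MOTS-c) and -0.043 (Msln, between the peptides). In both comparisons that include AngII+MOTS-c, replicate 1 of each group has a library-name number the other group lacks. These libraries therefore did not inform the blocked estimate there. Tbx18 between the peptides was 0.0099 and 0.011 in limma, 0.00015 without a filter, 0.00047 at 10 counts or more and 0.00041 with all 12 libraries. With 1 library left out, values with HNG ranged from -0.058 to 0.20 (Krt18), -0.081 to 0.14 (Krt8), -0.13 to 0.039 (Msln), -0.018 to 0.064 (Tbx18) and -0.10 to 0.00054 (Wt1). With MOTS-c they ranged from -0.25 to 0.12 (Bnc1), -0.24 to 0.032 (Krt19), -0.17 to 0.052 (Krt8), -0.17 to 0.00020 (Msln), -0.0092 to 0.053 (Tbx18), -0.16 to 0.015 (Upk3b) and -0.076 to 0.012 (Wt1). Between the peptides they ranged from -0.038 to 0.044 (Aldh1a2), -0.013 to 0.087 (Msln), -0.040 to 0.041 (Tbx18) and -0.068 to 0.028 (Wt1). Of 760 values of the other named genes, 679 were the same and 81 no longer passed.

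Depth limits Krt18, Krt19 and Bnc1 most, at 28 to 161 counts per library, and intervals cover counting error and library spread only.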
